A study of Rattus norvegicus with 12 samples.

Results

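The genes described here belong to families of extracellular matrix proteins, of proteases that cut the matrix, and of protease inhibitors. Families of receptors and junction proteins, which hold lung cells to the matrix or to each other, are included. The genes were 25, measured by 29 probes of the 51255 on a rat whole-genome array. They were chosen by gene symbol among the 1279 probes, of 1099 genes, for which a gene name could be used, which is the readable portion of the study's list of genes that differed between silica and saline lungs at day 28. Symbols of the matrix metalloproteinase, TIMP, ADAM, lysyl oxidase, integrin, laminin, fibulin, thrombospondin, serpin, cadherin, claudin and collagen families and the genes Tnc, Spp1 and Fn1 were taken. Of the 30 genes so found, Mmp9, Itgam, Itgb2, Serpina1 and Col1a1 were left aside. No named probe of a lysyl oxidase or a claudin, or of Tnc or Spp1, was in the list.

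Lung RNA of 12 male Wistar rats was measured on 1 single-colour array per rat, in 4 groups of 3 rats. Rats of the silica groups had received 1 mL of silicon dioxide at 50 mg/mL into the trachea, and rats of the saline groups 1 mL of saline, and lungs were taken at day 14 or day 28. The labels also give the dose as 50 mg/kg, and for the 6 arrays labelled day 14 their title and time point say 14 days while a protocol text common to all arrays says 28 days; they are called day 14 here. The age of the rats was not given in the sources used here, and the particles in this model were instilled rather than inhaled. The study's methods describe day 28 only. There, the 3 lungs of each group were picked for the arrays by their histological changes, so they may not stand for all rats treated. Rats of a group were caged together, so cage and treatment cannot be told apart. The arrays of day 28 chose the genes, so their values are given as a description without a test. The rats of day 14 are other animals, with controls of their own, and silica was tested against saline there.

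The matrix of the lung is a scaffold of collagens, laminins, fibronectin and elastic fibres. Metalloproteinases of the MMP and ADAMTS families cut it, TIMPs bind and block these enzymes, and serpins block serine proteases such as those released by neutrophils. Integrins are pairs of an alpha and a beta chain that bind cells to matrix proteins, and cadherins join neighbouring cells. In silicosis, collagen-rich nodules form around cells that have taken up the particles, and these families are studied in it because the scaffold is taken apart and laid down again.

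Each value rests on a DNA probe of 60 bases. Of the 25 genes, 21 had 1 named probe, and Mmp14, Timp3, Itga1 and Col13a1 had 2. In all, 6 of the probes are printed below in full, 5′ to 3′ as they lie on the array, because the results on junctions, the basement membrane, thrombospondins, serpins and TIMPs rest on them, and because each holds at least 1 reading frame with no stop codon.
Cdh5: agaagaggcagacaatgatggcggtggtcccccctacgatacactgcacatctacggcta
Lama2: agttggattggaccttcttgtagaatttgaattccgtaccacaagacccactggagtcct
Thbs4: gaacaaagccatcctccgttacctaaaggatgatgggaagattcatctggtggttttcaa
Serpinb1a: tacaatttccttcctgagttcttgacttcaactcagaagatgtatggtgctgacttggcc
Timp1: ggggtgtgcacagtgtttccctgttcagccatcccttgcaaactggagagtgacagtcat
Timp3: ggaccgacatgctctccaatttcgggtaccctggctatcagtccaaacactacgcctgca

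The pair of Mmp14 probes shared a run of 50 bases that begins cttcagagtgcatatttggaggtggaaaga, so their 2 readings were taken on nearly the same target. The longest run shared by a pair was 7 bases for Itga1, 5 for Col13a1 and 4 for Timp3, so those readings came from different target sequences. The GC content of the probes had a median of 43.3% both for the 12 genes that were higher with silica at day 28 (range 25 to 55%) and for the 13 that were lower (range 35 to 55%). The genes lay on 14 chromosomes as far as the study's list gave one, with at most 3 on any of them.

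At day 28, 12 of the 25 genes were higher and 13 lower in silica than in saline lungs, each with 3 silica values on one side of the 3 saline values, in the contrast that chose them. Of all 32097 probes tested on that day, 9.72% passed the same threshold, 4.98% higher and 4.74% lower, and 47.8% had groups that did not overlap. Differences in log2 signal ranged from 1.17 to 4.27 among the higher genes, with a median of 1.73, and from -1.71 to -1.05 among the lower genes, with a median of -1.24. The members nearest to the study's limit of 2-fold were Adamtsl3, at -1.03 in the authors' deposited log2 table, and the second Timp3 probe, also at -1.03. Values just outside that limit belong to probes without a name here. The 3 silica arrays and 1 saline array of day 28 lay on slide 1 and the other 2 saline arrays on slide 2. Slide therefore goes partly with treatment on that day.

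**Figure D1:**
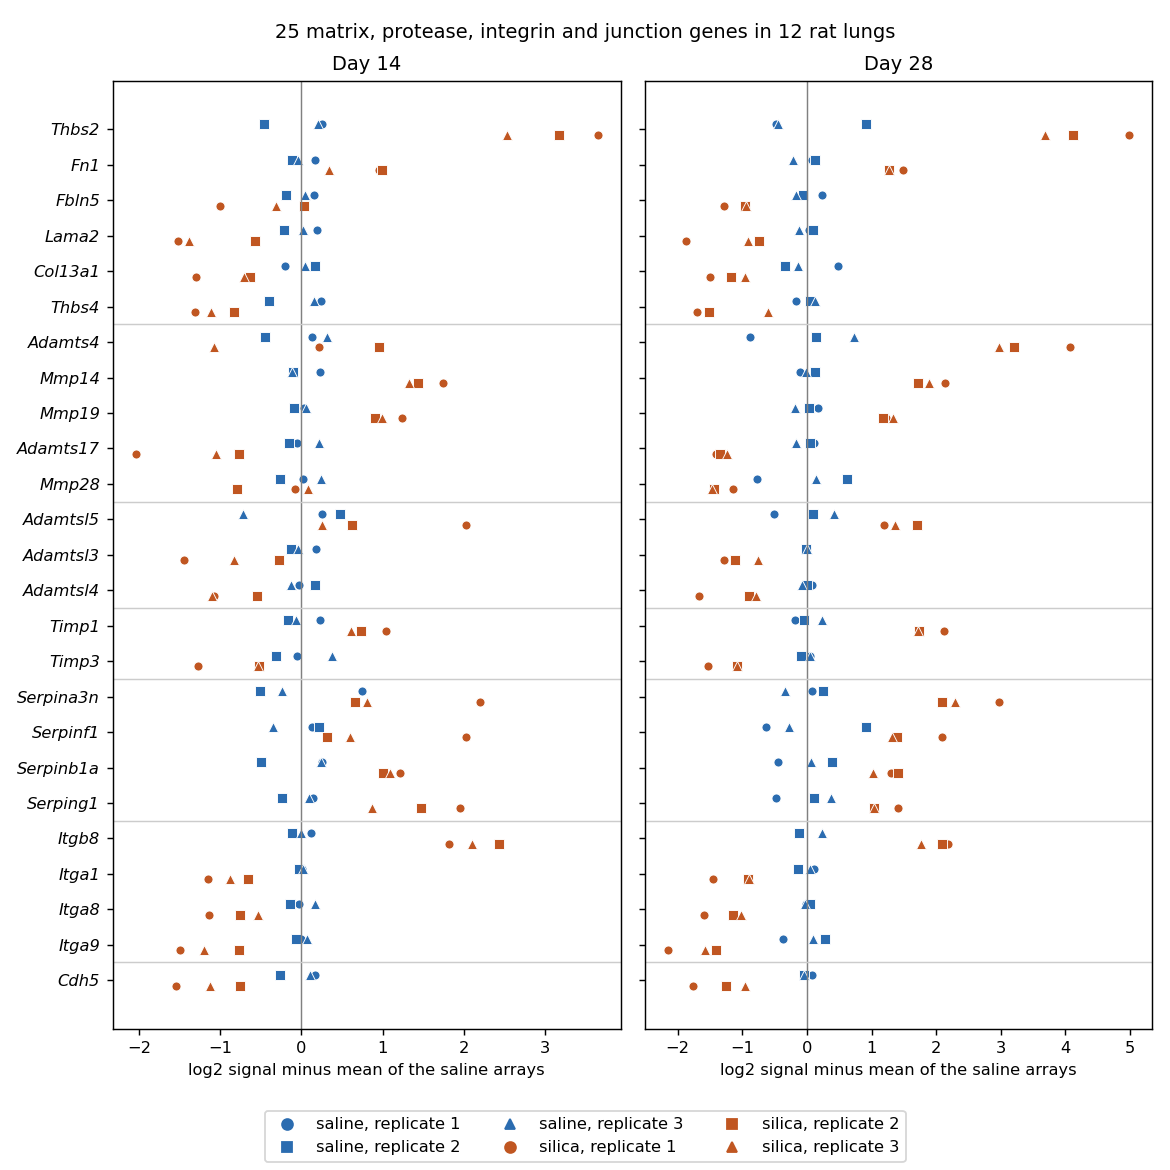
Each point is 1 array, plotted as its log2 signal minus the mean of the 3 saline arrays of the same day, for the 25 genes in rows grouped by role (matrix proteins, metalloproteinases, ADAMTS-like proteins, TIMPs, serpins, integrins, cadherin). Silica arrays are orange and saline arrays blue. At day 28, the day that chose the genes, the groups lie apart for all 25, and at day 14 they overlap for Fbln5, Adamts4, Mmp28, Serpina3n and Adamtsl5.

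At day 14, 24 of the 25 genes passed the filter on dim probes and 11 of them were called, that is, changed at least 2-fold at an adjusted p of at most 0.05 (limma with Benjamini-Hochberg adjustment over all 33615 probes). Thbs2, Itgb8, Mmp14, Serping1, Serpinb1a and Mmp19 rose, and Adamts17, Lama2, Itga9, Cdh5 and Thbs4 fell. Those 11 were 45.8% of the 24 genes, beside 4.90% of all probes tested. The 6 that rose stand beside 2.59% of all probes, and the 5 that fell beside 2.31%. Of the other named probes on the study's list, 41.3% were called at day 14 (499 of 1208), beside 46.4% of the member probes (13 of 28), so the members' share stands close to that of the list they came from. Another 5 members had an adjusted p of at most 0.05 with a change under 2-fold, which makes 16 of 24, beside 9.36% of all probes.

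The direction at day 14 was that of day 28 in all 25 genes, beside 98.2% of the other named probes (1186 of 1208) and 73.2% of all 31615 probes tested on both days. The 25 include Adamtsl5, which was not tested at day 14, and Adamts4, with a difference of 0.03 (standard error 0.48). The signs of Adamts4 and Mmp28 turned in fits that left out 1 rat. The median difference at day 14 was 1.08 for the 12 genes higher at day 28 and -0.90 for the 13 lower ones, beside -0.01 over all probes tested. The values of the silica and saline rats did not overlap in 20 of 24 genes, against 34.4% of all probes tested. The p-values set each difference against the spread between the rats of a group, which limma draws toward the typical spread of all probes tested.

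Leaving out 1 rat at a time changed many of these calls. The number of members called at day 14 was 4, 4 and 3 without saline replicates 1, 2 and 3, and 4, 15 and 5 without silica replicates 1, 2 and 3, so each rat other than silica replicate 2 took the count from 11 to 5 or fewer. Calls over all 33615 probes also moved, from 1647 to 612, 356 and 356 without saline replicates 1, 2 and 3. They were 1195, 2327 and 1123 without silica replicates 1, 2 and 3. Thbs2, Itgb8 and Mmp14 were called in all 6 of these fits. Adamts17 and Thbs4 were not well above background on every array, and with a filter that asks for all 6 arrays they drop out, leaving 9 members called. With no filter on dim probes, Adamts17, Cdh5, Itga9, Lama2, Serpinb1a, Serping1 and Thbs4 were not called (adjusted p 0.065 to 0.13). With normexp, 7 of the 11 were not called, all of them under 2-fold: Adamts17, Thbs4, Itga9, Lama2, Serpinb1a, Mmp19 and Itgb8. Over all probes, 396 of 51255 were called with no filter and 708 of 33615 with normexp. Adamts17 and Thbs4 had differences of only -0.33 and -0.335 with normexp, and an adjusted p of 0.058 and 0.064. Cdh5 was also lost under a 75th percentile shift (-0.90), and Adamts17 in the authors' log2 table (adjusted p = 0.055).

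**Figure D2:**
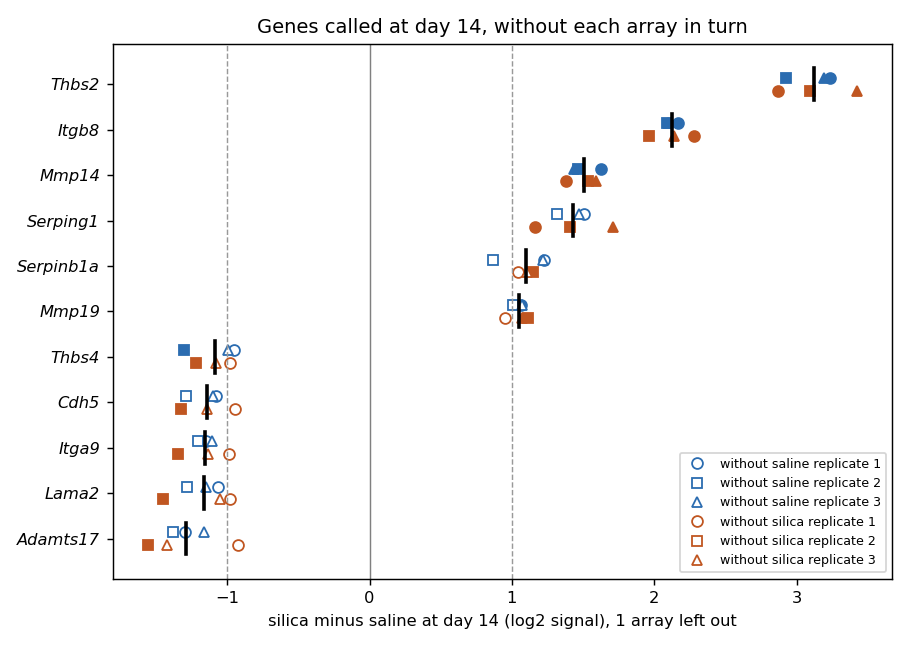
For the 11 genes called at day 14, each symbol is the difference between silica and saline (log2 signal) with 1 array left out, filled where the gene was still called and open where it was not, and the black bar is the value from all 6 arrays. Blue symbols leave out a saline array and orange symbols a silica array (circle, square and triangle for replicates 1, 2 and 3), and dashed lines mark a 2-fold change. The symbols of Thbs2, Itgb8 and Mmp14 are all filled, and for Serpinb1a, Cdh5, Itga9, Lama2 and Adamts17 the single filled symbol is that without silica replicate 2.

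Among the matrix proteins, Thbs2, a thrombospondin known for restraining the growth of blood vessels, was the member with the largest difference at day 14. Its log2 signal at day 14 was 4.54, 3.82 and 4.49 in the saline rats and 7.93, 7.46 and 6.82 in the silica rats. Every silica value lay above every saline value, the lowest of them far from the highest saline value. The difference of 3.12 (standard error 0.32, adjusted p = 0.0055, limma) is 8.71-fold, and it lay between 2.87 and 3.42 without any 1 rat. Under the normexp background correction, which adds an offset of 50 to every signal and so narrows differences of dim probes, it was 1.55. At day 28 the 3 saline values were 3.72, 5.11 and 3.75, of which 2 were well above background, and the silica values were 9.19, 8.32 and 7.88.

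Thbs4, a thrombospondin best known from tendon and muscle, went the other way. At day 14 its values were 5.70, 5.05 and 5.61 in saline rats and 4.14, 4.63 and 4.34 in silica rats, of which 2 of 3 were well above background, so that the probe entered the test through the saline group alone. It fell by 1.09 (standard error 0.22, adjusted p = 0.029, limma), and the call held without saline replicate 2 or silica replicate 2 and was lost without any of the other 4 rats (adjusted p 0.057 to 0.11). In the rats of day 28 the saline mean was 5.23 ± 0.15 (SD, n = 3) and no silica array was well above background (mean 3.95), so that Thbs4 was at least 1.73-fold lower there. This bound sets the saline mean against the lowest signal that counted as well above background on each silica array, or the probe's own where that was higher.

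Lama2, a laminin chain of basement membranes, fell by 1.16 at day 14 (standard error 0.26, adjusted p = 0.039, limma), to 0.447 of the saline level. The 3 saline values were 8.09, 7.68 and 7.92 and the silica values 6.37, 7.32 and 6.51. The silica rats lay below the saline rats without overlap, and replicate 2 was the nearest to them. Only without silica replicate 2 did the call hold among the fits that left out 1 rat (adjusted p = 0.014, and 0.078 to 0.12 without any other). Means at day 28 were 8.15 ± 0.11 in saline and 6.97 ± 0.62 in silica rats (SD, n = 3).

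The other 3 matrix proteins were not called at day 14. Fn1 codes for fibronectin, the glycoprotein on which many integrins bind, and its mean log2 signal was 8.41 ± 0.15 in saline and 9.17 ± 0.37 in silica rats (SD, n = 3), a difference of 0.76 (standard error 0.21, adjusted p = 0.062, limma). The day 28 difference was 1.34. Fbln5, which takes part in the assembly of elastic fibres, had overlapping groups at day 14, with a difference of -0.43 (standard error 0.27, adjusted p = 0.35, limma), and one of -1.06 at day 28.

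Col13a1, a collagen that spans the cell membrane, was read by 2 probes that gave different calls. The brighter probe had 9.69, 10.06 and 9.94 in saline rats and 8.60, 9.27 and 9.19 in silica rats at day 14, a difference of -0.88 (standard error 0.21, adjusted p = 0.045, limma), under 2-fold. The other probe had a difference of -1.37 (standard error 0.31, adjusted p = 0.039), past the threshold. Both probes had every silica value below every saline value, and at day 28 their differences were -1.21 and -1.56.

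Among the metalloproteinases, Mmp14, a membrane-bound enzyme that cuts collagen and activates other metalloproteinases, rose 2.84-fold at day 14. Its values were 8.06, 7.72 and 7.71 in saline and 9.57, 9.27 and 9.16 in silica rats, with no overlap. The difference was 1.50 (standard error 0.17, adjusted p = 0.0076, limma), between 1.38 and 1.62 when any 1 rat was left out, and 1.45 by the overlapping second probe. At day 28 the values were 7.40, 7.63 and 7.50 in saline and 9.65, 9.24 and 9.40 in silica rats, a difference of 1.92.

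Mmp19, another metalloproteinase with basement membrane proteins among its substrates, rose 2.07-fold at day 14. The saline values were 6.68, 6.55 and 6.70 and the silica values 7.88, 7.55 and 7.64. The groups did not overlap, with a difference of 1.05 (standard error 0.14, adjusted p = 0.011, limma). The call was lost without saline replicate 2 or 3 (adjusted p 0.056 and 0.055) and without silica replicate 1, where the difference was 0.95, under 2-fold. Its day 28 difference was 1.24.

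Adamts17, a secreted protease linked to fibrillin matrix, fell by 1.29 at day 14 (standard error 0.32, adjusted p = 0.048, limma). Its values were 4.96, 4.86 and 5.23 in saline rats and 2.98, 4.24 and 3.97 in silica rats, of which 1 of 3 was well above background. The probe entered the test through the saline group alone, and the size of its fall is uncertain because it was taken mostly against background. Silica replicate 1 was the lowest by far, and without it the difference was -0.92 (adjusted p = 0.033). The call held without silica replicate 2 alone, and the adjusted p ran from 0.078 to 0.15 without silica replicate 3 or any saline rat. At day 28 no silica array was well above background (mean 3.39, against 4.72 ± 0.15 in saline rats), which makes Adamts17 at least 1.32-fold lower.

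Adamts4 and Mmp28 differed at day 28 but had overlapping groups at day 14. Adamts4, an aggrecanase that cuts large matrix proteoglycans, had 4.66, 4.09 and 4.85 in the saline and 4.76, 5.49 and 3.45 in the silica rats of day 14, a difference of 0.03 (standard error 0.48, adjusted p = 0.98, limma), and in 3 of the 6 fits with 1 rat less its sign turned. At day 28 its values were 1.82, 2.84 and 3.43 in saline rats, none well above background, and 6.77, 5.90 and 5.67 in silica rats, so that it was at least 5.16-fold higher in silica rats. In the authors' log2 table, in which all 12 arrays stand together, the saline mean of Adamts4 was 4.48 ± 0.39 at day 14 and 2.69 ± 0.88 at day 28, and the silica means were 4.51 ± 1.02 and 6.16 ± 0.56 (SD, n = 3). The saline mean was lower at day 28 than at day 14, but its size at day 28 is uncertain because it was taken at background. The silica mean was higher at day 28, and the silica arrays of these days lay on different slides. Neither change was tested.

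Mmp28, called epilysin and found in airway epithelium, had 8.82, 8.54 and 9.03 in saline and 8.71, 7.995 and 8.88 in silica rats at day 14, a difference of -0.27 (standard error 0.26, adjusted p = 0.56, limma). Among the rats of day 28 the saline values were 7.76, 9.15 and 8.67 and the silica values 7.39, 7.09 and 7.06, a difference of -1.35. Saline replicate 1 is the saline array of day 28 that shared slide 1 with the 3 silica arrays, and against it alone the difference was -0.58. Serpinf1 also moved by over 1.5-fold when the silica arrays of day 28 were set against that array, to 2.23, and none of the 25 changed sign. Adamts4 has no measured value in the saline rats of day 28, so its shift is not given.

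The ADAMTS-like proteins have the matrix-binding domains of the ADAMTS family without the protease, and none of the 3 was called at day 14. Adamtsl4, which binds fibrillin, came nearest, with 8.07, 8.27 and 7.98 in saline and 7.02, 7.56 and 6.997 in silica rats, a difference of -0.91 (standard error 0.19, adjusted p = 0.031, limma) that is under 2-fold. Adamtsl3 had a difference of -0.85 (standard error 0.28, adjusted p = 0.11). Adamtsl5 did not pass the filter, with 2 of 3 arrays well above background in each group of day 14 and a difference of 0.97, and it was 1.42 higher in silica rats at day 28.

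The 2 TIMPs went in opposite directions. Timp1, a secreted inhibitor of most metalloproteinases, had 9.89, 9.49 and 9.59 in saline and 10.69, 10.39 and 10.27 in silica rats of day 14, without overlap, a difference of 0.79 (standard error 0.17, adjusted p = 0.036, limma) or 1.74-fold, which did not reach the 2-fold limit. The difference was 1.86 at day 28. Timp3, the inhibitor that stays bound to the matrix, had a mean of 12.90 ± 0.35 in saline and 12.12 ± 0.43 in silica rats (SD, n = 3), a difference of -0.78 (standard error 0.26, adjusted p = 0.11, limma) by its brighter probe and -0.74 by the other. The same probes differed by -1.24 and -1.01 at day 28.

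All 4 serpins were higher in silica rats at day 28, and 2 of them rose at day 14. Serping1, the inhibitor of the complement protease C1, had 8.02, 7.63 and 7.96 in saline and 9.82, 9.34 and 8.74 in silica rats, which did not overlap, and a difference of 1.43 (standard error 0.28, adjusted p = 0.027, limma). The call was lost without any 1 of the saline rats (adjusted p 0.073 to 0.096) and held without any 1 of the silica rats. Serpinb1a, which blocks neutrophil elastase and cathepsin G, had 7.70, 6.96 and 7.70 in saline and 8.66, 8.46 and 8.54 in silica rats, a difference of 1.102 (standard error 0.22, adjusted p = 0.029) whose call held without silica replicate 2 and was lost without any other rat (adjusted p 0.058 to 0.079). The silica values of Serpinb1a lay within a narrow range, while saline replicate 2 was apart from the other saline rats.

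Serpina3n, an inhibitor of serine proteases that rises in acute inflammation, and Serpinf1, pigment epithelium-derived factor, which does not inhibit proteases, varied more between rats at day 14. For Serpina3n the silica values were 6.86, 5.31 and 5.46 and overlapped the saline values, and the difference was 1.22 (standard error 0.48, adjusted p = 0.15, limma). For Serpinf1 they were 9.39, 7.68 and 7.96, against 7.49, 7.57 and 7.01 in saline rats, and the difference was 0.98 (standard error 0.43, adjusted p = 0.19). Silica replicate 1 was the highest for both, and without it the differences were 0.74 and 0.46. At day 28 Serpina3n was 2.45 and Serpinf1 1.60 higher in silica rats.

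Among the integrins, Itgb8, whose chain pairs with alpha-v and frees TGF-beta from its latent form, rose 4.35-fold at day 14. The values were 4.88, 4.66 and 4.77 in saline and 6.59, 7.21 and 6.87 in silica rats, with little spread in either group. The difference of 2.12 (standard error 0.18, adjusted p = 0.0033, limma) lay between 1.96 and 2.28 without any 1 rat. It was 1.00 under the normexp correction, just short of 2-fold (adjusted p = 0.0044). Values at day 28 were 4.52, 4.53 and 4.88 in saline and 6.82, 6.74 and 6.41 in silica rats, a difference of 2.01, so it was one of the 2 members, with Serping1, whose difference was not larger at day 28 than at day 14.

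The 3 alpha chains were all lower in silica rats, and 1 of them was called. Itga9, which binds tenascin-C and osteopontin, had 6.16, 6.10 and 6.24 in saline and 4.67, 5.40 and 4.97 in silica rats and fell by 1.15 (standard error 0.20, adjusted p = 0.020, limma), and among the fits that left out 1 rat the call held without silica replicate 2 alone (difference -1.35). Itga1, the alpha chain of a collagen receptor, had 10.10, 10.07 and 10.11 in saline and 8.95, 9.43 and 9.22 in silica rats, a difference of -0.90 (standard error 0.16, adjusted p = 0.022), and its other probe differed by -0.98. Itga8, the alpha chain of a nephronectin receptor, differed by -0.81 (standard error 0.19, adjusted p = 0.041). Itga1 and Itga8 did not overlap between groups and stayed under the 2-fold limit, and at day 28 Itga9, Itga1 and Itga8 differed by -1.71, -1.09 and -1.25.

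Cdh5, the cadherin of junctions between endothelial cells, fell by 1.14 at day 14 (standard error 0.23, adjusted p = 0.029, limma), to 0.453 of the saline level. It had 14.11, 13.68 and 14.05 in saline and 12.40, 13.18 and 12.82 in silica rats. The call held without silica replicate 2 and was lost without any other rat: without silica replicate 1 the difference was -0.94, and without silica replicate 3 or any saline rat the adjusted p was 0.066 to 0.11. Its values at day 28 were 14.29, 14.16 and 14.16 in saline and 12.45, 12.95 and 13.24 in silica rats, a difference of -1.32.

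**Figure D3:**
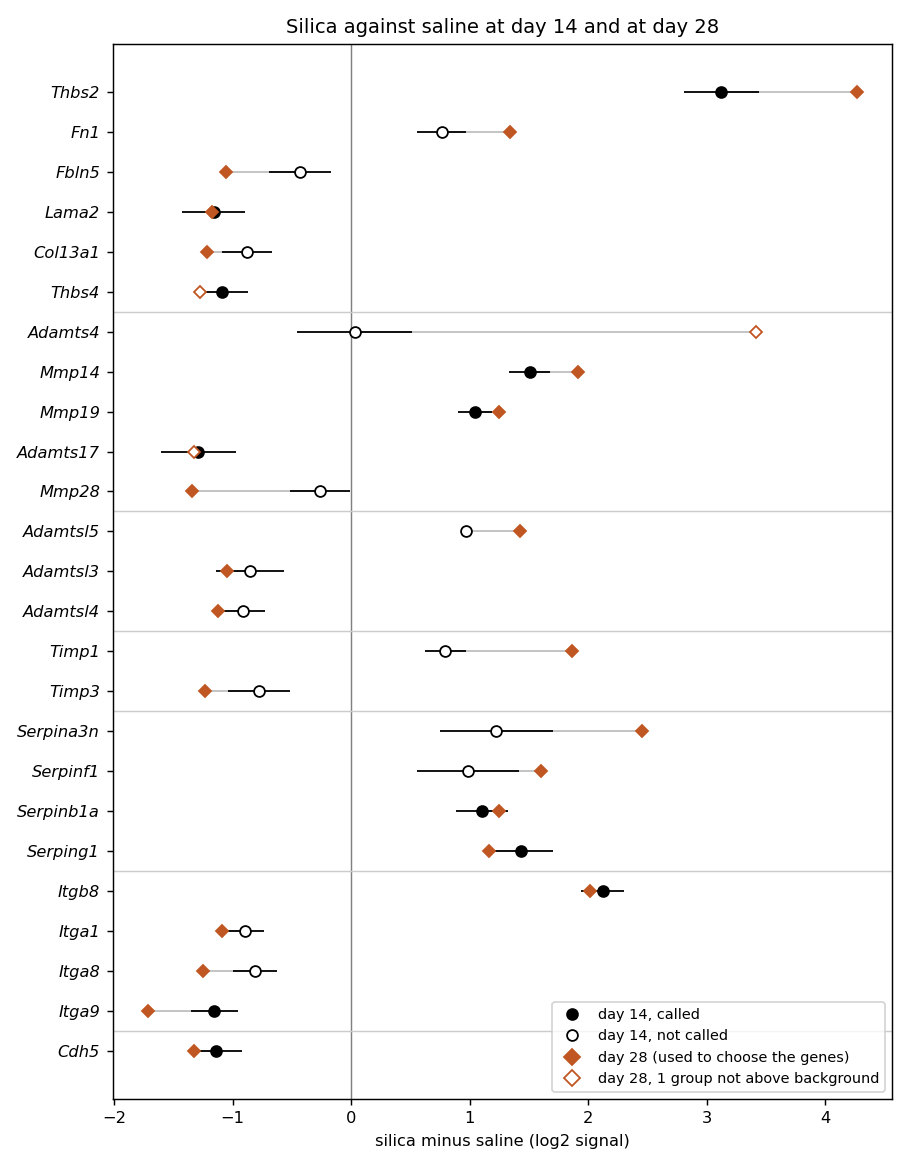
The difference between silica and saline (log2 signal) of the 25 genes at day 14 (circles, with the standard error of the limma fit, filled where called; Adamtsl5 was not tested and has none) and at day 28 (diamonds, without an error since these values chose the genes). Circle and diamond lie on the same side of 0 in every row, 23 diamonds lie farther out than their circles, and open diamonds mark Adamts4, Adamts17 and Thbs4, whose position is uncertain because 1 group was not well above background on any array of day 28.

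The difference was larger in size at day 28 than at day 14 in 23 of the 25 genes, with a median size of 1.33 against 0.98. For Adamts4, Adamts17 and Thbs4 the day 28 value is uncertain, since 1 group was not well above background there. No test was made of this, because the day 28 values chose the genes, and because the 3 silica arrays of day 28 lay on slide 1 and those of day 14 on slide 2, so day and slide cannot be told apart. Over all probes tested the median size was 0.33 at day 28 and 0.24 at day 14.

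The silica rats kept much the same order across the members. Of the 13 genes lower at day 28, silica replicate 1 had the lowest value among the silica rats of day 14 in 11, and a different rat with the same number had it in 12 of 13 at day 28. Of the 12 higher genes, silica replicate 1 was the highest in 9 on either day. The same held for the other probes called on those days, where it was the lowest silica array for 82.6% of 772 lowered probes at day 14 and 79.0% of 1507 at day 28, so this order is not particular to the matrix and adhesion genes. Without silica replicate 1, no gene of the 5 that fell at day 14 was called, and their differences ran from -0.99 to -0.92. Over all 33615 probes, 778 were called lower at day 14 with that rat and 422 without it.

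Other cell types moved with the groups. The markers that could be followed are those on the study's list of day 28, so they were selected for a change, and 41.3% of all the list's probes other than the members' were called at day 14. In bulk lung RNA, fewer cells of a type and less RNA per cell cannot be told apart. Of 9 endothelial markers, 7 had a named probe and 4 fell at day 14 (Plvap, Tek, Clec14a and Sox18), and their summed linear signal was 10436 to 12755 in saline and 3097 to 5847 in silica rats.

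The macrophage markers rose in 4 of 5 (Cd68, Msr1, C1qa and Mpeg1), with sums of 2186 to 3130 in saline and 8402 to 15371 in silica rats. Msr1 was well above background on 1 of 3 saline arrays, so its probe entered the test through the silica group alone. The 3 named alveolar type 1 markers (Aqp5, Clic5 and Rtkn2) had differences of -0.96 to -1.42 and none was called, with sums of 9363 to 12067 and 2768 to 7089. Of 4 ciliated cell markers only Tppp3 fell, and of 4 markers of cycling cells 3 rose. Among those 3, Birc5 was well above background on 1 of 3 saline arrays and also entered the test through the silica group alone. The 4 fibroblast and smooth muscle markers went both ways. Prrx1 rose by 1.56, and Lum (0.45), Tagln (-0.77) and Lmod1 (-0.64) were not called. The sums of the 4 were 3844 to 5501 in saline and 2563 to 3561 in silica rats. Tagln was by far the brightest in them (mean log2 signal 11.95 in saline rats, beside 5.56 to 7.98 for the others). The mean log2 signal of the 4 was 8.10 to 8.32 in saline and 8.09 to 8.62 in silica rats. The only named neutrophil marker, Il1r2, was not called (difference 2.17, adjusted p = 0.064, limma), and no alveolar type 2 marker had a named probe, so the label of lung could not be checked against type 2 cells. The part of these shifts in the results on Cdh5, the integrins, laminin and the proteases was not tested.

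**Figure D4:**
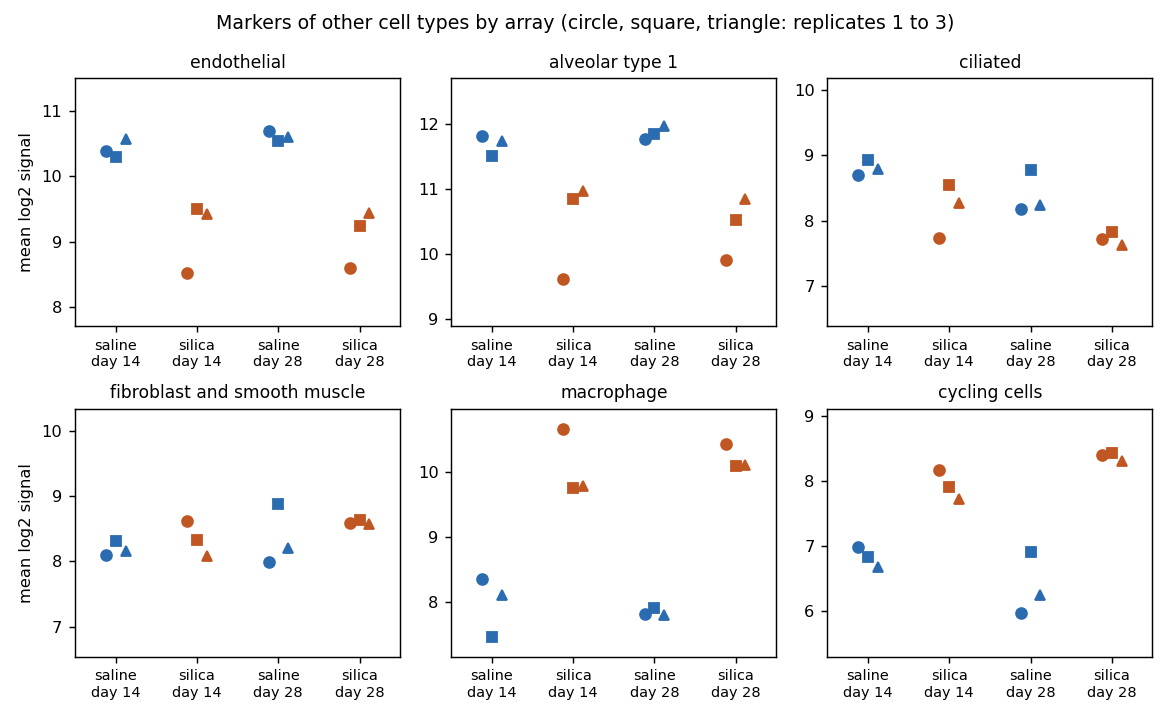
Mean log2 signal of the named markers of 6 cell types on each array (7 endothelial, 3 alveolar type 1, 4 ciliated, 4 fibroblast and smooth muscle, 5 macrophage and 4 cycling-cell genes), with saline arrays in blue and silica arrays in orange. All panels span the same number of log2 units. Endothelial markers were at 10.3 to 10.6 in saline and 8.52 to 9.51 in silica rats at day 14, macrophage markers at 7.46 to 8.37 and 9.76 to 10.67, and silica replicate 1 (circle) is lowest for endothelial and highest for macrophage markers on both days.

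A list of 53 further matrix, protease, inhibitor, junction and adhesion genes was followed at day 14, of which 45 had a named probe. All 45 came from the study's list of day 28, where 16 were higher and 29 lower. At day 14, 11 rose and 13 fell past the threshold, which is 24 of 45 (53.3%), and 21 did not pass. These shares stand beside 4.90% of all probes tested and 41.3% of the named probes other than the members', to which the 45 belong. Without any 1 rat the count ran from 2 (without saline replicate 2) to 29 (without silica replicate 2), and it was 5, 3, 10 and 14 without saline replicate 1, saline replicate 3, silica replicate 1 and silica replicate 3. Of all 33615 probes, 1647 were called with every rat, 356 without saline replicate 2 and 2327 without silica replicate 2.

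Among those that rose was Ctsk, a collagen-cutting cathepsin. It was well above background on no saline array (mean 2.05) and on all 3 silica arrays (mean 5.001). Its probe entered the test through the silica group alone. Ctsk was at least 2.34-fold higher in silica rats. The adjusted p of 0.021 (limma) belongs to a log2 difference of 2.95 that was taken against background, so its size is uncertain. Others that rose were Vcan, a large proteoglycan (1.07, standard error 0.15, adjusted p = 0.014), Plau, the urokinase that makes plasmin (1.11, standard error 0.20, adjusted p = 0.022), and its receptor Plaur (1.20, standard error 0.15, adjusted p = 0.0095). Tgfbr1, a receptor chain for TGF-beta, rose by 1.66 and Tgfbr3, its co-receptor, fell by 1.103. Reck, a membrane-bound inhibitor of metalloproteinases, fell by 1.19, and the junction or adhesion proteins Jam2, Icam2 and Cadm1 fell by 1.09, 1.33 and 1.02. The tight junction protein Tjp1 was not called, with a difference of -0.78, nor was Tgfb1 (0.83, standard error 0.21, adjusted p = 0.051).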

How the data were processed

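RNA from 12 rat lungs was hybridised to single-colour Agilent arrays. The authors scanned them and deposited an intensity for each of 62972 spots per array, made with Agilent Feature Extraction 10.7.1.1 per the labels, corrected for background and not normalized between arrays. A log2 table was deposited as well, quantile normalized per their methods, which was used as an alternative.

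After removal of 1439 control spots and of outliers, spots were averaged to 51255 probes. Their log2 values were quantile normalized within each day (6 arrays), so levels of the days were normalized separately. On each array 60.5% to 69.5% of probes stood well above background, which sets the lowest signal that can be compared, and no probe was saturated. The share was 60.5% to 61.1% on the silica arrays of day 28 and 63.25% on the saline array beside them on slide 1. On slide 2 it was 68.2% and 69.5% on the other saline arrays of day 28, and 64.6% to 69.2% on the arrays of day 14. At day 28, share, slide and treatment can only partly be told apart. Probes had to stand well above background on every array of 1 group or more. The number of arrays limits the precision.

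Silica was compared with saline by limma 3.58.1 in R 4.3.3, tested on simulated data, with Benjamini-Hochberg adjustment. Calls needed an adjusted p up to 0.05 and a 2-fold change. For genes with 2 probes the brighter one stands. All 25 members are named, with the value of every array for those called at day 14. Alternatives were a 75th percentile shift, normexp (offset 50), no filter, a filter over all 6 arrays, the log2 table, leaving out each array, a replicate block, the other probe, all 12 arrays in 1 fit, and slide. Tables were handled in Python 3.11.15.

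The members and gene lists, markers of 8 cell types included, were chosen with earlier results of these data known. Names, accessions and chromosomes came from the readable portion of the study's gene list, whose positions name no genome build and are not printed. All 25 symbols are in RefSeq's table for GRCr8.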

Additional observations from a re-analysis of the deposited data

How the results depend on the processing

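At day 14, the count of 11 members called was 8 to 12 under a 75th percentile shift, the authors' log2 table, a filter over all 6 arrays, all 12 arrays in 1 fit, the replicate block and the other probe. It was 4 with normexp and 4 with no filter on dim probes, and 3 to 15 when 1 rat was left out. For the further matrix and adhesion genes the count of 24 was 12 with normexp, 4 with no filter, and 2 to 29 when 1 rat was left out. With no filter, 51255 probes were tested and 396 of them called. Of all 33615 probes of day 14, 1647 were called in the fit given above and 708 with normexp. The replicate block called 1534 of them, and fits without 1 rat called 356 to 2327. At day 28 the 25 members were 13 with normexp and 17 to 23 when 1 rat was left out, with no claim drawn. Of all 32097 probes of that day, 3120 were called, 1303 with normexp and 2474 to 3490 without 1 rat. The cause of these shifts was not tested. Normexp moved 6 members at day 14 and 8 at day 28 by over 1.5-fold: Adamts17, Itga9, Itgb8, Serpina3n, Thbs2 and Thbs4 on both days, and Adamts4 and Adamtsl5 at day 28.

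The sign of 22 members at day 14 held under each alternative. That of Adamts4 turned without saline replicate 2 (-0.19), silica replicate 1 (-0.07) or silica replicate 2 (-0.43) and was 0.59 at most, and that of Mmp28 without silica replicate 2 (0.001), with -0.44 at the lowest. No sign turned at day 28.

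Replicate numbers are shared across groups in the labels, but same-numbered rats did not deviate together (correlations -0.17 to 0.06 at day 14 and -0.16 to -0.03 at day 28). Differently numbered rats had correlations of -0.21 to 0.18 at day 14 and -0.18 to 0.19 at day 28. No pairing by number was seen, but deviations within groups of 3 cannot exclude it. With the number as a replicate block, 8 members were called at day 14 (not Adamts17, Cdh5, Lama2 and Thbs4, adjusted p 0.052 to 0.067, but Serpina3n, adjusted p = 0.024), 23 at day 28, and 21 further genes at day 14.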
